A study of Mus musculus with 6 samples.

Results

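Dopamine receptor genes and genes of dopamine-receptive, striatal-type neurons were followed in RNA of the mouse medial prefrontal cortex (mPFC). The 9 genes were Drd1, Drd2, Drd4, Drd5, Ppp1r1b, Rgs9, Adora2a, Syndig1l and Rarb, taken by gene symbol from a table of 31763 genes, and all 9 were found once. Male C57BL/6J mice of 8 to 10 weeks were trained for conditioned place preference, in which 1 chamber is paired with an injection. The morphine group (10 mg/kg, i.p.) and the saline group (10 ml/kg, i.p.) had 3 samples each, and tissue was taken right after a retrieval test that followed about a week in home cages. Strain, sex, age, training and tests were shared by both groups. How many mice went into a sample is not stated, and the p-values below speak only of the spread among these samples, which may be technical.

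Dopamine acts through a pair of receptor families. D1-like receptors (Drd1, Drd5) raise cAMP through stimulatory G proteins, and D2-like receptors (Drd2, Drd3, Drd4) lower it through inhibitory G proteins. In the striatum nearly all projection neurons carry Drd1 or Drd2 and share a set of signalling genes, while in the cortex dopamine receptors are found on subsets of pyramidal cells and interneurons. Dopamine in the prefrontal cortex is known for its part in working memory and in learning about reward.

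Of the 9 genes, 0 differed between morphine and saline at an adjusted p under 0.05 in edgeR's quasi-likelihood test, as was so for 0% of the 18970 genes tested. At an unadjusted p under 0.05 edgeR gave 525 genes higher and 940 lower. DESeq2, another count test, called 16 genes (3 higher, 13 lower) and none of the 9. It gave Drd2 and Drd4 no adjusted p, so they could not be called there. Ppp1r1b, which encodes the dopamine- and cAMP-regulated phosphoprotein DARPP-32, was at 1.29-fold. Every morphine library lay above every saline library for it, as was so for 5.98% of the genes tested. Syndig1l was 0.398 times the saline level by the fit, and this rested on saline sample 1, which held 4.74 times the mean of saline samples 2 and 3. Drd1, Rgs9 and Rarb were at 1.04, 1.04 and 1.05 times the saline level by the fit, and Drd4 and Drd2 were too thinly counted to show any but large differences.

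Saline sample 1 was unlike the other 5 libraries. It was high in genes of the olfactory bulb, a structure just rostral to the cortex sampled: 7 genes of mitral and tufted cells, the bulb's output neurons, summed to 190 CPM there against 15.1 to 19.8 CPM in the other 5 libraries. CPM here are read counts scaled to a common library size, with TMM normalization. The 11 genes of the bulb's GABAergic neurons summed to 810 CPM in saline sample 1 and 280 to 321 CPM elsewhere, and each of these 11 was over 2 times the higher of saline samples 2 and 3. The comparisons of the 9 genes are therefore also given without that library. Total counts were 17984153 to 23529592 per library. The pyramidal neuron gene Slc17a7 had at least 23897 counts in every library. Among transcription factor genes of striatal neurons, Isl1 and Six3 had at most 1 and 2 counts in any library, while Foxp2 (358 to 560), Ebf1 (77 to 177) and Rxrg (54 to 157) were counted in all of them and highest in saline sample 1.

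Stretches of the start regions are shown for Rarb, which holds a pair of nuclear receptor half-sites, the kind of site that retinoic acid receptors such as its own product bind, and for Drd1, the highest of the receptor genes, which holds a single one. Windows of 300 bases around the start, from RefSeq on GRCm38.p6, were at hand for 6 of the 9 genes (7 windows, 2 of them for Drd1). Capitals mark the letters GGTTCA or AGTTCA on either strand. The Rarb stretch lies at chr14:16575477-16575576 on the minus strand and runs from 100 bases before the window's start to the last base before it. This start lies within the annotated gene (chr14:16430839-16819156, 7 transcripts) and not at its outer end. Use of this start in these libraries was not tested. The Drd1 stretch lies at chr13:54055746-54055844 on the minus strand and runs from 186 to 88 bases before the start.
Rarb: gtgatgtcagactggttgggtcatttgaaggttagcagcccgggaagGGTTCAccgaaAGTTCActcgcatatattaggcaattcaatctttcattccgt
Drd1: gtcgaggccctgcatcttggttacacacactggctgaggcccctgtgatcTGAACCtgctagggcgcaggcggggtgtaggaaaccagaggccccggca

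In Rarb the pair GGTTCA and AGTTCA lies 53 and 42 bases before the start, with 5 bases between them, the layout of the retinoic acid response element for which this promoter is known. That pair at that spacing was found in 2 of 32851 windows (0.00609%), on either strand, the Rarb window among them. GGTTCA alone was in 10.4% and AGTTCA alone in 14% of windows. AGTTCA and the pair were searched after the windows had been read, so the Rarb match was set beforehand. Other pairs of half-sites were not counted, and the share holds for these letters only. In Drd1 the match is to GGTTCA on the opposite strand, 136 bases before the start. The Drd4 window also held GGTTCA and AGTTCA, without that pairing, and the other members' windows held neither. The half-site AGGTCA (16.3% of all windows) and the cAMP response element TGACGTCA (1.79%) were in none of the 7 windows. The box TATAAA (13.6%) was in 1, that of Rgs9, 195 bases before the start. These are matches of letters in a window, and no match says only that the letters are not there.

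The genes spanned a wide range of levels, which are compared here per length, as the authors' FPKM (fragments scaled by gene length and library size). Ppp1r1b was the highest at a mean of 14.3 FPKM over the 6 libraries (SD 2.25), followed by Drd1 at 3.60 FPKM (SD 0.267). Rgs9 (1.85 FPKM), Rarb (1.60 FPKM) and Drd5 (1.23 FPKM) formed the middle, and Adora2a (0.617 FPKM), Syndig1l (0.504 FPKM), Drd2 (0.304 FPKM) and Drd4 (0.154 FPKM) the low end. The ranges over libraries did not overlap between Ppp1r1b and Drd1, between Drd1 and Rgs9, or between Drd5 and Adora2a. The other 5 pairs of neighbours in this order overlapped, and the order was the same over the 5 libraries without saline sample 1.

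**Figure D1:**
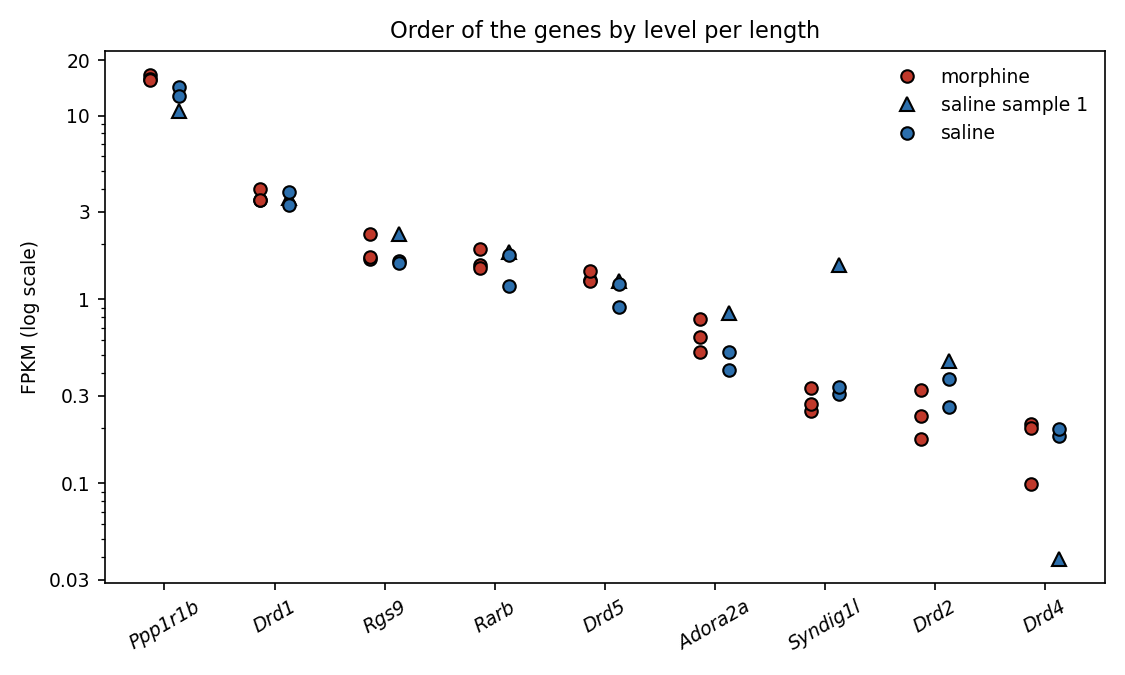
FPKM of the 9 genes on a log axis, ordered by their mean over 6 libraries; each point is 1 library, red for morphine and blue for saline, with a triangle for saline sample 1. Ppp1r1b lies above all others in every library, and the triangle of Syndig1l at 1.54 FPKM lies apart from its other points at 0.248 to 0.332 FPKM.

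Among the receptors, Drd1 took most of the summed FPKM of the 5 dopamine receptor genes, at 65.0% to 72.3% in the morphine libraries and 65.9% to 69.6% in the saline libraries. The D1-like pair summed to 4.97 ± 0.241 FPKM in morphine and 4.68 ± 0.467 FPKM in saline (SD, n = 3 each). The D2-like genes, with Drd3 included, summed to 0.413 ± 0.130 FPKM in morphine and 0.530 ± 0.0641 FPKM in saline (SD, n = 3 each). The D1-like sum was thus 8.98, 19.2 and 11.3 times the D2-like sum in morphine samples 1 to 3, against 8.32, 7.57 and 11.04 times in saline samples 1 to 3. These ratios overlapped between the groups, and the highest, in morphine sample 2, came with 8 counts of Drd2 and 6 of Drd4.

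Drd1 encodes the main D1-like receptor of the forebrain (ENSMUSG00000021478, chr13:54051183-54055705, minus strand, GRCm38). It was at 12.8, 14.3 and 12.8 CPM in morphine samples 1 to 3, against 12.7, 11.8 and 13.9 CPM in saline samples 1 to 3, from 232 to 296 counts. The groups overlapped, and the log2 fold change was 0.06 (standard error, SE, 0.11, 95% interval -0.18 to 0.29; adjusted p = 0.90 in edgeR). The interval spans folds of 0.883 to 1.22 and overlaps that of Ppp1r1b in the same fit, which spans 1.10 to 1.51. The difference between Drd1 and Ppp1r1b was not tested. Without saline sample 1 the log2 fold change of Drd1 was 0.05 (95% interval -0.19 to 0.30). That interval holds the 0.25 of Ppp1r1b in that fit.

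Drd5 encodes the other D1-like receptor, which in the cortex is found on pyramidal cells and interneurons (ENSMUSG00000039358, chr5:38319367-38322518, plus strand, GRCm38). It stood at 4.09, 3.92 and 4.59 CPM in morphine samples 1 to 3 and at 3.92, 2.88 and 3.83 CPM in saline samples 1 to 3. All but 1 of these values lay between 3.83 and 4.59 CPM, and saline sample 2 was the low one. This gave a log2 fold change of 0.25 (SE 0.18, 95% interval -0.15 to 0.65; adjusted p = 0.73 in edgeR), and 0.34 without saline sample 1. An antisense gene, Gm26560, shares 1531 exonic bases with Drd5 and had at most 17 counts in a library, and whether strand was used in the counting is not stated.

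Drd2, the gene of the D2 receptor, which is both a receptor on target neurons and the autoreceptor of dopamine neurons, was close to the limit of counting (ENSMUSG00000032259, chr9:49340627-49408177, plus strand, GRCm38). It had 15, 8 and 14 counts in morphine samples 1 to 3 and 27, 20 and 13 in saline samples 1 to 3, which is 0.830, 0.441 and 0.606 CPM against 1.16, 0.943 and 0.664 CPM. Saline samples 1 and 2 were the highest libraries, and saline sample 3 lay within the morphine range. By the fit Drd2 had a log2 fold change of -0.57 (SE 0.36, 95% interval -1.37 to 0.23; adjusted p = 0.70 in edgeR), and -0.37 without saline sample 1.

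Drd4, a D2-like receptor gene expressed in the cortex and the retina, was the lowest of the 9 (ENSMUSG00000025496, chr7:141292006-141296464, plus strand, GRCm38). Its counts were 13, 6 and 16 in morphine samples 1 to 3 and 3, 13 and 13 in saline samples 1 to 3. Morphine sample 2 and saline sample 1 were the low libraries, and the other 4 held 13 to 16 counts. By the fit the morphine over saline log2 ratio of Drd4 was 0.35 (SE 0.55, 95% interval -0.87 to 1.57; adjusted p = 0.88 in edgeR), and it turned to -0.12 without saline sample 1. Drd3, the third D2-like gene and not one of the 9, had 3 counts in saline sample 1 and 0 in every other library, which allows up to 3 counts in each.

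**Figure D2:**
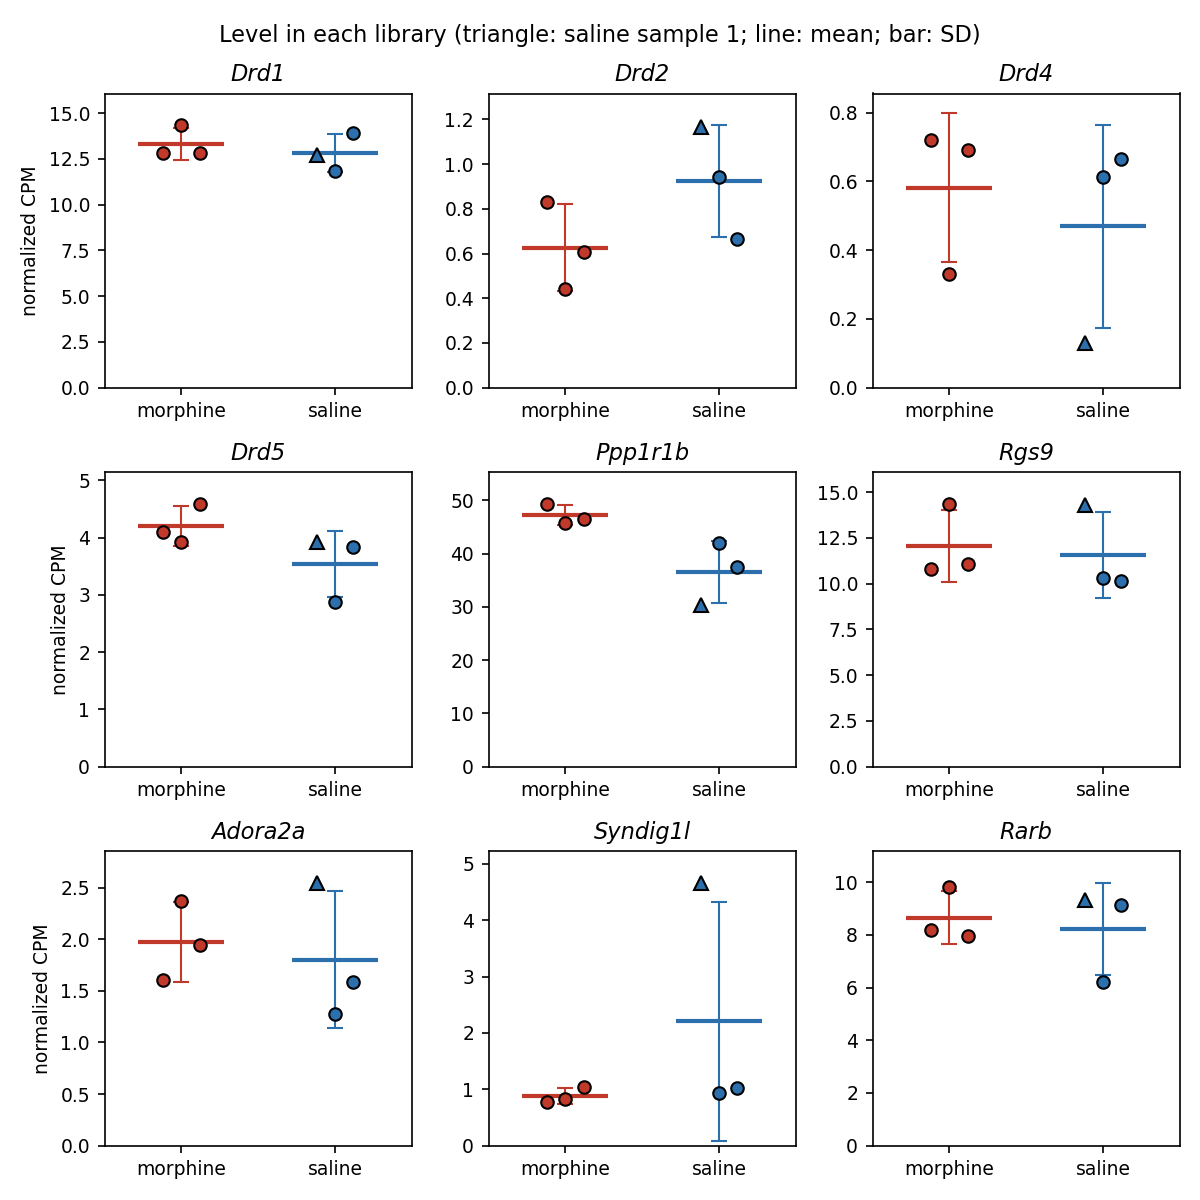
Normalized CPM of each gene in each library, 1 panel per gene with its own axis from 0; red is morphine, blue is saline, the triangle is saline sample 1, the line is the mean of 3 libraries and the bar its SD. The 3 morphine points lie above the 3 saline points for Ppp1r1b, and for Syndig1l the triangle at 4.66 CPM lies above the other 5 points, which reach 1.04 CPM.

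Ppp1r1b acts downstream of the receptors (ENSMUSG00000061718, chr11:98348404-98357796, plus strand, GRCm38). Its product DARPP-32 turns into an inhibitor of protein phosphatase 1 when protein kinase A phosphorylates it, and in the cortex it is found mostly in deep-layer pyramidal cells. It was at 49.3, 45.8 and 46.5 CPM in morphine samples 1 to 3, against 30.5, 42.0 and 37.4 CPM in saline samples 1 to 3. Every morphine library lay above every saline library, and saline sample 1 was the lowest of all. The log2 fold change was 0.37 (SE 0.10, 95% interval 0.14 to 0.60), with an unadjusted p of 0.0051 and an adjusted p of 0.58 in edgeR. In the table, 5.98% of the genes tested had every morphine library above every saline library and 7.32% had every one below; of the 9 genes this was so for 1 and for 0. In a bulk sample, more cells of a type and more RNA per cell cannot be told apart.

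Without saline sample 1, the log2 fold change of Ppp1r1b was 0.25 (SE 0.07, 95% interval 0.10 to 0.40; unadjusted p = 0.0021, adjusted p = 0.11 in edgeR). The morphine libraries still lay above both remaining saline libraries, as was so for 4 of the 9 genes and for 12.7% of the genes tested. It was higher in morphine under all 15 alternatives, at 0.25 to 0.48. With no filter on low counts it passed (adjusted p = 0.0096 in edgeR), where 279 genes did, and its adjusted p ranged from 0.0096 to 0.98 over the alternatives. The summed CPM of the 9 pyramidal neuron genes was also lowest in saline sample 1, at 1917 CPM against 2116 to 2298 CPM in the other libraries, and each of them but Tle4 was at its lowest there. All 9 had a log2 fold change above 0, at a median of 0.14, while 9002 of all 18970 genes tested were above 0. Neurod6 was at 0.24 and Neurod2 at 0.21, both transcription factor genes of excitatory neurons. Without saline sample 1 the median of these 9 was 0.08. There 8 of the 9 were above 0, beside 9604 of all 18671 genes. The part of the pyramidal neuron genes in the value of Ppp1r1b was not tested. On the opposite strand, 1700003D09Rik shares 460 exonic bases with Ppp1r1b and had at most 64 counts in a library.

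Rgs9 encodes a regulator of G protein signalling that speeds the shut-off of D2 and opioid receptor signals in striatal neurons (ENSMUSG00000020599, chr11:109225355-109298129, minus strand, GRCm38). It was at 10.8, 14.3 and 11.1 CPM in morphine samples 1 to 3 and at 14.3, 10.3 and 10.1 CPM in saline samples 1 to 3. Each group had 1 library at 14.3 CPM, morphine sample 2 and saline sample 1, and the other 4 lay between 10.1 and 11.1 CPM. Rgs9 had a log2 fold change of 0.06 (SE 0.16, 95% interval -0.31 to 0.42; adjusted p = 0.94 in edgeR), and 0.24 without saline sample 1.

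Adora2a, the gene of an adenosine receptor that opposes D2 signalling in Drd2 neurons of the striatum, showed the same pair of high libraries (ENSMUSG00000020178, chr10:75316877-75334784, plus strand, GRCm38). It had 29, 43 and 45 counts in morphine samples 1 to 3 and 59, 27 and 31 in saline samples 1 to 3. This gave 1.60, 2.37 and 1.95 CPM in morphine and 2.54, 1.27 and 1.58 CPM in saline. Saline sample 1 was the highest, followed by morphine sample 2. Adora2a had a log2 fold change of 0.12 (SE 0.29, 95% interval -0.53 to 0.78; adjusted p = 0.92 in edgeR), and 0.47 without saline sample 1.

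Rarb encodes the retinoic acid receptor beta, a transcription factor that striatal projection neurons of the mouse need for their development (ENSMUSG00000017491, chr14:16430839-16819156, minus strand, GRCm38). It was at 8.19, 9.82 and 7.96 CPM in morphine samples 1 to 3 and at 9.32, 6.22 and 9.14 CPM in saline samples 1 to 3. Saline sample 2 was the low library and the other 5 lay between 7.96 and 9.82 CPM. The log2 fold change was 0.07 (SE 0.17, 95% interval -0.30 to 0.45; adjusted p = 0.92 in edgeR), and 0.17 without saline sample 1. Its exons share 1793 bases with those of Top2b on the opposite strand, a gene with up to 4128 counts in a library. Reads of the 2 genes cannot be told apart there if strand was not used in the counting, so the level of Rarb is uncertain.

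Syndig1l, a relative of the synapse gene Syndig1 that is enriched in the striatum, was set by 1 library (ENSMUSG00000071234, chr12:84677277-84698831, minus strand, GRCm38). Its counts were 14, 15 and 24 in morphine samples 1 to 3 and 108, 20 and 20 in saline samples 1 to 3. The 5 libraries other than saline sample 1 lay between 0.774 and 1.04 CPM, and saline sample 1 was at 4.66 CPM. Syndig1l had a log2 fold change of -1.33 (SE 0.58, 95% interval -2.63 to -0.03), with an unadjusted p of 0.045 and an adjusted p of 0.64 in edgeR. Leaving that library out gave -0.14 (SE 0.36, 95% interval -0.89 to 0.61; adjusted p = 0.92 in edgeR). With no filter on low counts the adjusted p was 0.031 in edgeR, within a range of 0.031 to 0.98 over its alternatives.

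Counted together, 7 of the 9 genes had a log2 fold change above 0 and 2 below. Of all 18970 genes tested, 9002 were above 0. The median of the 9 was 0.07, against -0.01 over all genes tested. At an unadjusted p under 0.05 in edgeR, 1 was higher (Ppp1r1b), as were 2.77% of the genes tested, and 1 was lower (Syndig1l), as were 4.96%. Without saline sample 1, 6 of the 9 were above 0 and 3 below, while 9604 of all 18671 genes were above 0. The median there was 0.17 for the 9, against 0.00 over all genes. In that fit 1 of the 9 was higher (4.14% of genes) and 0 lower (7.53% of genes) at an unadjusted p under 0.05 in edgeR. Past an adjusted p of 0.05 it gave 186 of 18671 genes (0.996%), 0 of the 9 among them. DESeq2 without that library gave 94 genes and also none of the 9. There Drd2, Drd4, Adora2a and Syndig1l had no adjusted p from DESeq2, so they could not be called.

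**Figure D3:**
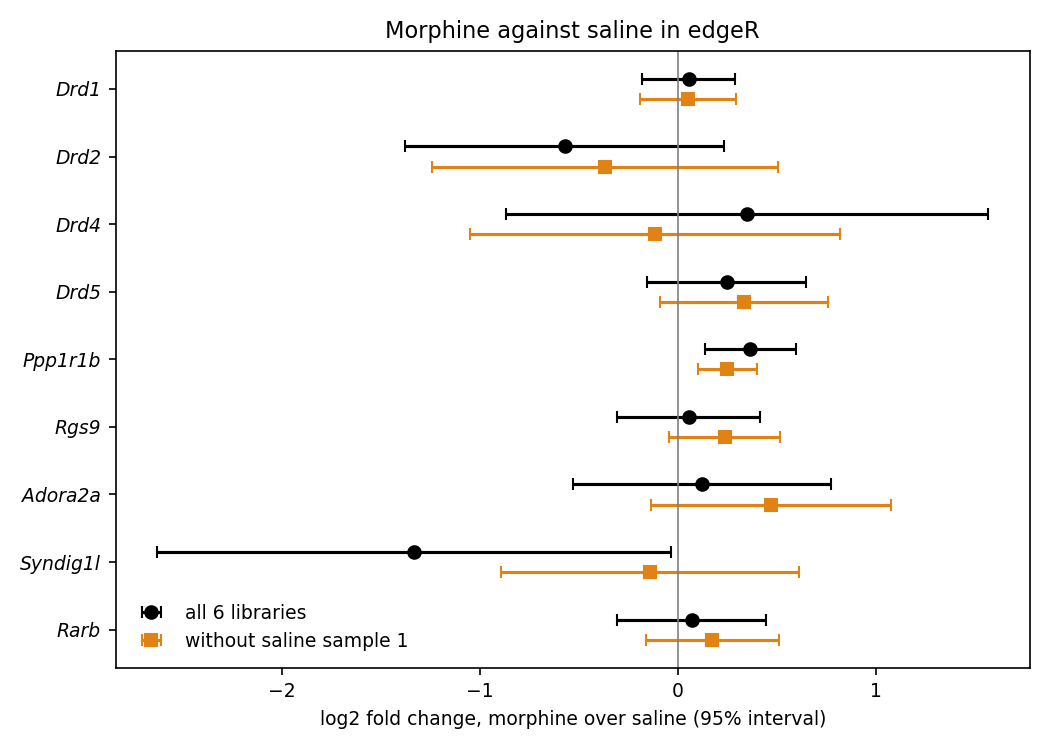
Log2 fold change of each gene, morphine over saline, with its 95% interval from edgeR; black is the fit of all 6 libraries and orange the fit without saline sample 1. The interval of Ppp1r1b lies above 0 in both fits, and Syndig1l moves to -0.14 in the second.

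Saline sample 1 was then set beside saline samples 2 and 3, with no test, since it is 1 library of the same group. It lay above both others for 6 of the 9 genes, while 39.2% of all genes tested did so. Over 2 times the higher of the other 2 there was 1 of the 9, Syndig1l (1.5% of genes tested), and under 0.5 times the lower there was 1, Drd4 (1.34%). Intervals given for these ratios are exact 95% intervals for the ratio to the pooled counts of saline samples 2 and 3, and cover counting error only.

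Syndig1l in saline sample 1 was 4.74 times the mean of saline samples 2 and 3 (3.28 to 7.01), and 4.48 times the highest of the other 5 libraries. Adora2a was 1.78 times that mean (1.22 to 2.62), Rgs9 1.40 times (1.21 to 1.62) and Rarb 1.21 times (1.02 to 1.46). Of these 4, Syndig1l and Adora2a were higher in saline sample 1 than in any other library, Adora2a by 1.07 times only. Rgs9 and Rarb were higher in morphine sample 2, with saline sample 1 at 0.995 and 0.949 times that library. Drd2 stood at 1.45 times the mean of saline samples 2 and 3 (0.833 to 2.47) and Drd5 at 1.17 times (0.893 to 1.55). Both intervals hold 1.

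The other 3 genes did not lie above that mean. Drd1 was 0.989 times it (0.857 to 1.15). Ppp1r1b was 0.767 times it (0.700 to 0.836), and Drd4, with 3 counts, 0.203 times (0.0393 to 0.662). Striatal-type genes thus stood on both sides of the other saline libraries, with Syndig1l and Adora2a the highest and Ppp1r1b the lowest of 6 in saline sample 1. Of the receptor genes, Drd2 was also the highest of 6 there and Drd4 the lowest, both on few counts.

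**Figure D4:**
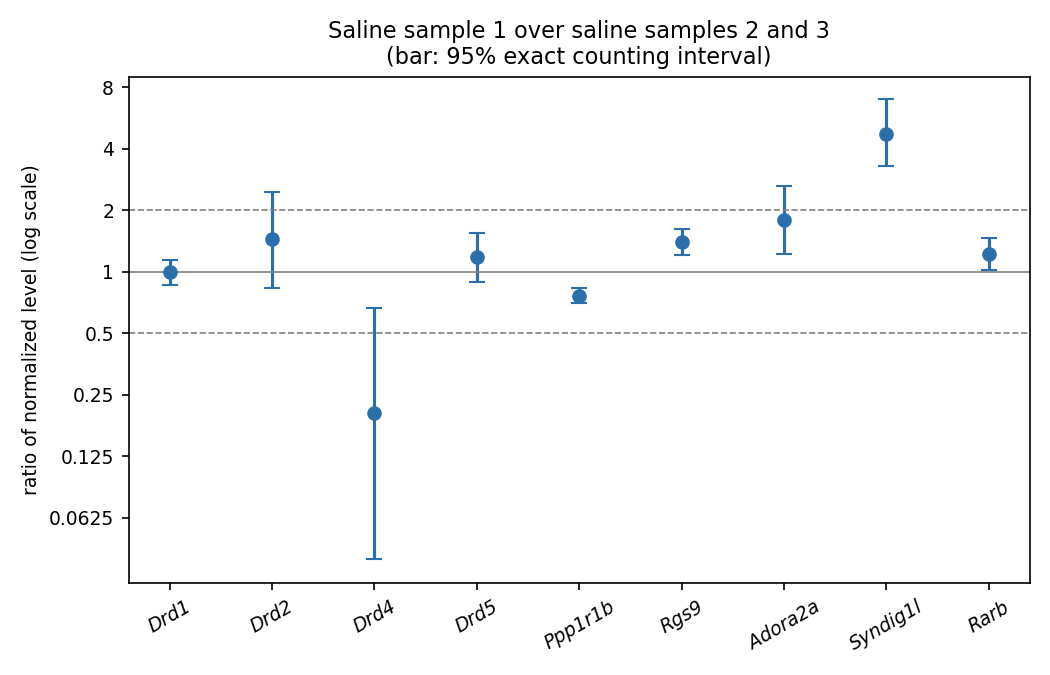
Level of each gene in saline sample 1 over the pooled level in saline samples 2 and 3, on a log axis; bars are exact 95% counting intervals, the solid line is 1 and the dashed lines are 2 and 0.5. Syndig1l lies above the upper dashed line, Drd4 below the lower one, and the other 7 between them.

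Olfactory bulb genes were high in the same library. Eomes, a transcription factor gene of mitral and tufted cells, had 462 counts in saline sample 1 and at most 7 elsewhere, and Cdhr1, a cadherin-related gene of the same cells, had 2638 against 61 to 83. Th, the rate-limiting enzyme of dopamine synthesis, had 533 counts in saline sample 1 and 12 to 26 in the others. Slc6a3, the dopamine transporter, had 41 against at most 3. Slc18a2, another transport gene, had 28 against at most 10. The synthesis genes Gch1 and Ddc differed less, at 1.23 and 1.13 times the mean of saline samples 2 and 3. Ddc lay within the range of the other libraries. The bulb holds dopamine neurons of its own. Of the 3 genes of the olfactory nerve layer, Omp, made by the sensory neurons of the nose, had 141 counts there and 18 to 35 elsewhere. Prss56 had 54 against at most 9. Frzb, the most counted of the 3, was at 33.3 CPM in saline sample 1, within the 21.9 to 33.6 CPM of the other libraries. Of the 8 cortical interneuron genes, 3 lay above both other saline libraries in saline sample 1 (Gad1 at 2.29 times their mean, Adarb2 at 1.72 and Gad2 at 1.56), and these carried the list's sum of 1040 CPM against 662 to 721 CPM elsewhere. The other 5 were at or below that mean, from Pvalb at 0.528 times to Sst at 0.999 times, and the median ratio of the list was 0.899. The 4 astrocyte genes summed to 829 CPM against 643 to 711 CPM, with 3 of them above both. The oligodendrocyte, microglia, endothelial and choroid plexus sums in saline sample 1 lay within the range of the other 5 libraries. The part of these cells in the level of Syndig1l, Adora2a or Rgs9 was not tested.

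**Figure D5:**
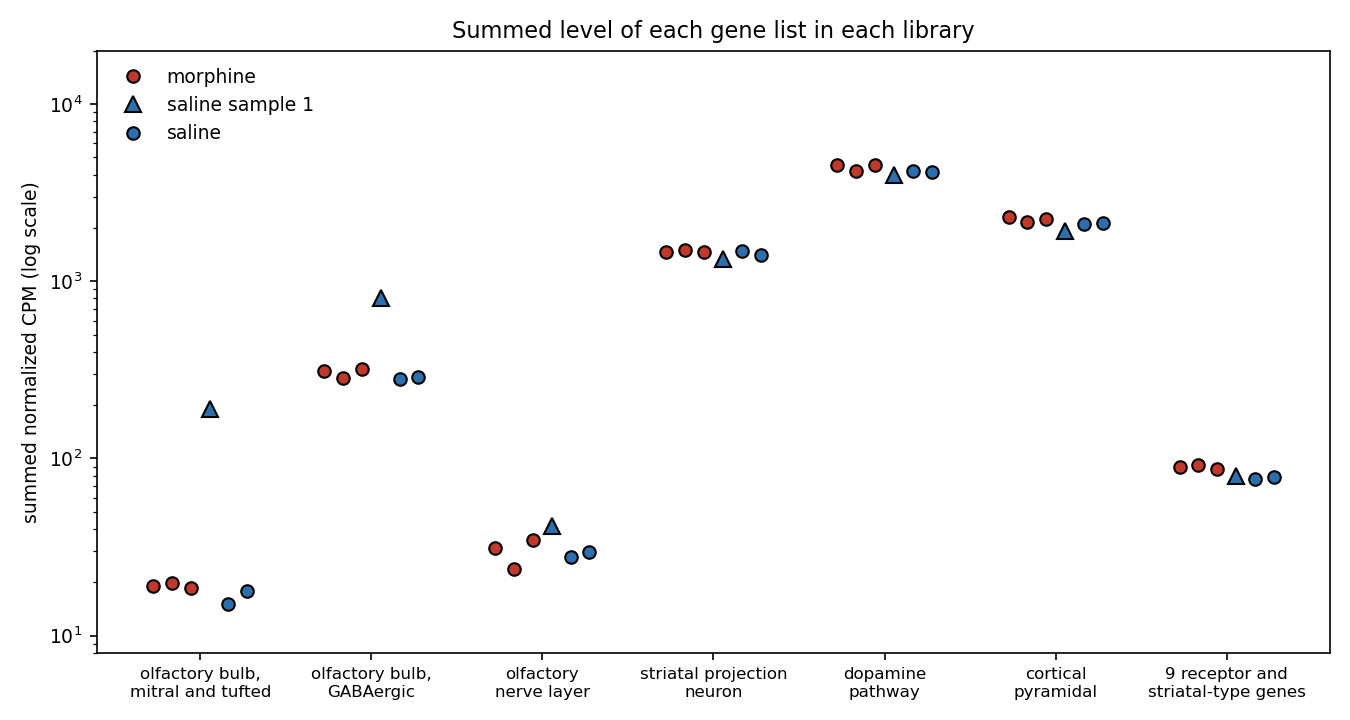
Summed normalized CPM of 6 gene lists and of the 9 genes in each library, on a log axis; red is morphine, blue is saline and the triangle is saline sample 1. The triangle lies above the other 5 libraries for the 3 olfactory lists and below them for the striatal, dopamine pathway and pyramidal lists. In saline sample 1, 9 of 19 dopamine pathway genes tested lay above both other saline libraries, beside 39.2% of all genes. The median ratio of these 19 to the mean of saline samples 2 and 3 was 1.004.

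Other genes of striatal projection neurons were followed as a list of 24, of which 23 were in the table, 21 were tested and 1 was not analysed here. In the fit of all 6 libraries 14 were above 0 and 7 below, while 9002 of all 18970 genes tested were above 0. The median log2 fold change of the list was 0.09 beside -0.01 over all genes. At an unadjusted p under 0.05 in edgeR, 3 of the 21 were higher (2.77% of all genes tested) and 0 lower (4.96%), and 0 passed an adjusted p of 0.05 (0%). Pde10a, the phosphodiesterase that breaks down cAMP and cGMP in striatal neurons, was at 121, 120 and 129 CPM in morphine samples 1 to 3 and at 108, 101 and 100 CPM in saline samples 1 to 3. Its morphine libraries all lay above its saline libraries, as was so for 5.98% of all genes tested. Its log2 fold change was 0.26 (SE 0.05, adjusted p = 0.47 in edgeR). Rasd2, a small G protein gene enriched in the striatum, was at 0.26 (SE 0.08). Dclk3, a kinase gene, was at 0.19 (SE 0.08).

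In the fit that left out saline sample 1, 18 of the 21 were above 0, while 9604 of all 18671 genes were. Of the pyramidal and the bulb GABAergic genes, 8 of 9 and 8 of 11 were above 0 there. Of the 21, 1 passed, Pde10a, beside 0.996% of all genes tested. Pde10a rose by 0.30 on the log2 scale (SE 0.05, adjusted p = 0.0072 in edgeR). In that fit Rxrg, a retinoid X receptor gene whose product pairs with retinoic acid receptors, had a log2 fold change of 0.79 (SE 0.22; adjusted p = 0.10 in edgeR), and Rasd2 one of 0.21. With all 6 libraries Rxrg was at 0.20 (SE 0.34), and its 157 counts in saline sample 1 were the most in any library. In saline sample 1, 12 of the 21 lay above both other saline libraries, beside 39.2% of all genes tested, and the median ratio to the mean of saline samples 2 and 3 was 1.03. Rxrg had the highest ratio at 2.46, followed by the enkephalin precursor gene Penk at 1.82, Ebf1 at 1.79 and Actn2 at 1.66. The summed CPM of the list, to which Arpp21 alone gave 474 CPM, was nevertheless lowest there, at 1343 CPM against 1415 to 1498 CPM in the other libraries.

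The other genes of the dopamine pathway were a list of 22, all in the table and 19 of them tested. They include genes of synthesis (Th, Gch1, Ddc), transport and breakdown (Slc6a3, Slc18a2, Maoa, Maob), G proteins and adenylyl cyclase (Gnal, Gnas, Gnai1, Gnao1, Adcy5) and the kinases and phosphatases around DARPP-32. Above 0 were 15 and below 0 were 4, with a median of 0.08, while 9002 of all 18970 genes tested were above 0. At an unadjusted p under 0.05 in edgeR 2 of the 19 were higher (2.77% of all genes tested), and 1 was lower (4.96%), Th, which was high in saline sample 1 alone. Cdk5, a kinase that also phosphorylates DARPP-32, was at 48.0 ± 2.16 CPM in morphine and 43.3 ± 1.55 CPM in saline (SD, n = 3 each), a log2 fold change of 0.15 (SE 0.06). Ppp3ca, the catalytic subunit of the phosphatase calcineurin, which acts on DARPP-32, was at 0.18 (SE 0.08). Rgs7bp, which anchors Rgs9 and related proteins at the membrane, was at 0.14 (SE 0.07), with an unadjusted p of 0.061.

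Of these 19, 0 passed an adjusted p of 0.05 in edgeR, with or without saline sample 1. Without it 18 of the 19 were above 0, at a median of 0.09, while 9604 of all 18671 genes were above 0. Other lists also leaned above 0 in that fit, with 8 of 9 pyramidal and 8 of 11 bulb GABAergic genes. All 4 oligodendrocyte and all 4 astrocyte genes were above 0 as well, and 1 of 2 choroid plexus genes. In that fit 3 of the 19 were higher at an unadjusted p under 0.05 in edgeR, beside 4.14% of all genes. They were Maob at 0.25, the protein kinase A gene Prkaca at 0.13 and the stimulatory G protein gene Gnas at 0.12. Th then had a log2 fold change of 0.59 (SE 0.38; adjusted p = 0.58 in edgeR), the opposite sign to its log2 fold change of -2.89 with all 6 libraries.

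The genes whose pattern over the 6 libraries lay nearest to that of a member were found by the root mean square difference of log2 CPM, centred per gene, among genes with a mean count of at least 50. For Drd1 these were the proteasome subunit gene Psmd13 (0.0162) and 4732440D04Rik (0.0258), beside a spread of Drd1 itself of 0.0901 on the same scale. For Ppp1r1b they were Parvg (0.0565) and Lingo3 (0.0566), beside its own 0.234. Lingo3, being picked for that pattern, was like Ppp1r1b lowest in saline sample 1, at 23.1 CPM. It lay between 31.7 and 37.5 CPM in the morphine libraries. For Rgs9 they were Mcm6 (0.0262) and Rbm4b (0.0494), for Rarb Slc7a3 (0.0540) and Wbp1 (0.0592), and for Drd5 5330438D12Rik (0.0503) and AC079441.1 (0.0591).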

How the data were processed

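For 6 mPFC libraries, made with a directional kit after removal of rRNA, the authors deposited read counts and FPKM per gene in 1 table. The submitters' processing notes list HISAT2 2.1.0, StringTie 1.3.3, HTSeq 0.11.2 and cutadapt 1.9.3, with mm10 as the build; how strand was set in counting is not stated. The deposited FPKM proved to be these counts scaled by gene length and by 1 constant for each library (checked on 13342 genes).

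Samples were grouped by their titles. A gene entered the test with 10 or more counts in 3 or more libraries (18970 genes, all 9 members among them). After TMM normalization, edgeR 4.0.16 (R 4.3.3) fitted group as the only term, with its quasi-likelihood test, two-sided, and Benjamini-Hochberg adjustment over all genes tested. The standard error is the log2 fold change over the square root of F. The script was tested on simulated data. Coordinates are from GENCODE M21 (GRCm38, the build called mm10). Replicate pairs of a group differed by 2.91 to 14.7 times the sampling noise (chi-square over its degrees of freedom), so none was merged.

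Alternatives were RLE factors, DESeq2 1.42.0, 2 other count filters, the replicate number as a block, limma 3.58.1 on log2(FPKM + 0.1), with and without a filter on low values, and on log2(FPKM + 1), and each library left out; DESeq2 without saline sample 1 was chosen after seeing the data. Members and lists were chosen with earlier results of these data known. The rule for named genes took the 9 members, up to 4 genes of lowest p and up to 4 of highest ratio in saline sample 1 per list, and the 2 nearest genes by pattern; of the list genes only a part is named. Genes named outside it are marker genes of the tissue check, members of the pathway list and genes that pass without saline sample 1, chosen after their values were seen. Low counts limit Drd2, Drd4, Syndig1l and Adora2a.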

Additional observations from a re-analysis of the deposited data

How the results depend on the processing

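Counts of genes past a threshold moved with the processing, while none of the 9 genes passed an adjusted p of 0.05 in any alternative but the one with no filter on low counts, in which Ppp1r1b and Syndig1l did. Against 0 genes called in edgeR (1465 at an unadjusted p under 0.05), DESeq2 called 16 (974), no filter on low counts 279 (2499), and DESeq2 without saline sample 1, chosen after seeing the data, 94. Leaving out 1 library at a time gave 0 to 186 genes called, with 186 without saline sample 1, and 748 to 2179 at an unadjusted p under 0.05, with 754 without morphine sample 1 and 748 without morphine sample 3. The cause was not tested. Leaving out 1 library also turned the sign of 4 log2 fold changes that passed no test: Drd4 ranged from -0.12 (without saline sample 1) to 0.69, Rgs9 from -0.084 to 0.24, Adora2a from -0.075 to 0.47 and Rarb from -0.10 to 0.17. The last 3 were below 0 without saline sample 2 or morphine sample 2, and Rgs9 also without saline sample 3. Drd4 was also at -0.12 in DESeq2 without saline sample 1. Of all genes, 285 were over 2 times the higher of saline samples 2 and 3 in saline sample 1, against 159 when set beside all other 5 libraries and 876 at a threshold of 1.5 times, where 2 of the 9 genes passed in place of 1. Drd2 and Drd4 could not be fitted under the filter of 10 counts in all 6 libraries, and DESeq2 gave them no adjusted p. Without saline sample 1, DESeq2 also gave none for Adora2a and Syndig1l.

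The replicate numbers did not pair the samples: correlations of deviations between saline and morphine libraries lay between -0.035 and 0.044. With the replicate number as a block, 0 genes were called and 1315 were at an unadjusted p under 0.05. At these counts, Drd2 (8 to 27) and Drd4 (3 to 16) leave wide intervals.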
